A study of Mus musculus with 378 samples.

Results

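Islets with high and with low levels of a small set of hypoxia target mRNAs were compared. The islets came from Diversity Outbred mice, a stock bred so that each animal carries a different mosaic of several founder genomes, and each library of poly(A)-selected islet RNA came from a different mouse. Titles with the letter F are read here as females and titles with M, of which there were 190, as males. All mice ate a diet high in fat and sugar (45% fat), so the groups share this diet. The labels name no treatment with low oxygen, and ages of the mice do not appear in the sources used here. For every library the deposited values of Ankrd37, Egln3, Pdk1, P4ha1, Bnip3 and Vegfa were turned into z values (distances from the mean in SDs) within each sex, and their mean was the library's hypoxia score. The top 1 in 4 libraries by this score, the high group, were 94 (48 females and 46 males). The bottom 1 in 4, the low group, were 94 (45 females and 49 males), and the 190 libraries between them did not enter the comparison. High and low are therefore names for islets sorted by their own RNA, and every difference given here is one that goes along with the score, not the response to a treatment.

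Cells sense oxygen through prolyl hydroxylases (Egln1, Egln2 and Egln3), which mark the alpha subunits of the hypoxia-inducible factors, Hif1a and Epas1, for destruction by the Vhl ubiquitin ligase. When oxygen is short the subunits persist, pair with Arnt, bind DNA at a short core motif and raise the transcription of genes for glucose uptake, glycolysis, vessel growth, mitophagy and collagen hydroxylation. Islets have a dense capillary bed and beta cells depend on oxidative metabolism to couple glucose to insulin release, and isolated islets lose their blood supply. Of the score genes, Ankrd37 encodes an ankyrin repeat protein, Egln3 an oxygen sensor, Pdk1 a kinase that switches off pyruvate dehydrogenase, P4ha1 the catalytic subunit of collagen prolyl hydroxylase, Bnip3 a mitophagy receptor and Vegfa the main growth factor of vessels.

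Library depth lay between 15.1 M and 68.8 M counts, with a median of 34.8 M. The labels name no batch, and mouse numbers were split into 4 bands of 100 numbers, each with both sexes; libraries of band 4 had a median of 24 M against 36.7 M in the other bands. The difference in total counts between the groups did not pass a two-sided permutation test (adjusted p = 0.543 over 6 library measures, 100000 resamples). Libraries were also ranked by their correlation, across genes, with the median library, and the 18 lowest (r from 0.943 to 0.964, against a median of 0.979) are called the 18 libraries that stand apart. Of the 13 that fell in a group, 11 were males of the high group, 1 was a female of the high group and 1 was a male of the low group. High libraries correlated with the median library at 0.975 ± 0.00869 and low libraries at 0.979 ± 0.00373 (SD, n = 94 each, permutation test, adjusted p = 6e-05). Values without these 18 libraries are given beside many of the gene groups. In 2 females Xist lay below the highest male (17.9 CPM, counts scaled to a common library total), and 1 of them was in the low group.

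The binding motif of the hypoxia-inducible factors is the reason for showing sequence here. Promoter windows from RefSeq (build GRCm38.p6, 250 bases before to 50 after a gene's start) were searched on both strands for ACGTG and GCGTG, the core of the hypoxia response element; ACGTG also lies inside the E-box CACGTG. A stretch of 60 bases before the start follows for each of 5 score genes and 6 genes described further on, 5′ to 3′ on the gene's own strand, with the matches in capitals (a match on the other strand reads CACGT or CACGC).
Ankrd37, chr8:45999971-46000030, minus strand: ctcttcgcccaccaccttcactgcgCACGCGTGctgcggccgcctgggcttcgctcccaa
Egln3, chr12:54204065-54204124, minus strand: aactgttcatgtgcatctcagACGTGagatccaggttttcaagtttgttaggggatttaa
Pdk1, chr2:71873119-71873178, plus strand: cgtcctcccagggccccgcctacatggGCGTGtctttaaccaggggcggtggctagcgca
P4ha1, chr10:59323125-59323184, plus strand: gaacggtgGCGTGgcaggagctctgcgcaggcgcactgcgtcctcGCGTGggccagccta
Bnip3, chr7:138909582-138909641, minus strand: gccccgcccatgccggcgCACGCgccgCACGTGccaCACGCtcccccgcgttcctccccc
Ak4, chr4:101419207-101419266, plus strand: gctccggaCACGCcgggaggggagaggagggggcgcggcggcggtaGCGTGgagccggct
Pfkl, chr10:78009874-78009933, minus strand: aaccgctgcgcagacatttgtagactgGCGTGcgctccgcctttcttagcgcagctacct
Ldha, chr7:46845734-46845793, plus strand: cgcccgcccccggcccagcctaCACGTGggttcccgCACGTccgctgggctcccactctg
Narf, chr11:121237080-121237139, plus strand: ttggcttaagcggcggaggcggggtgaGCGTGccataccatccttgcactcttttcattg
Slc2a1, chr4:119108670-119108729, plus strand: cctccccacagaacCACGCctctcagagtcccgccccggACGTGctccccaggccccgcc
Fam162a, chr16:36071594-36071653, minus strand: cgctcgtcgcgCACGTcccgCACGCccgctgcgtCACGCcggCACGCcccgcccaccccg
Such motifs are short and common. One or the other was found in 43.8% of all 32851 windows of this length and, counting a gene once over all its windows, in 65.2% of the 11572 tested genes with a window. All 6 score genes had a match, as did 26 of 28 other hypoxia targets and 15 of 18 glycolysis genes. The stretches shown come only from genes with a match before the start. Vegfa is not shown: its first window had 0 matches before the start and its second window 2. Gpi1, Tpi1 and Hspa1a, described further on, had 0 there. Hilpda, Kdm3a, Acer2 and Pgf had matches and are not shown either. Over all genes called higher in the high group the share was 65.2%, over those called lower 67.6%, and over those called higher by at least 1.5-fold 59.6%. The called genes as a whole thus held the motif about as often as all tested genes. A match is a description of the letters and not a measured binding site.

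The score ran from -1.42 to 2.28. The high group began at 0.428, with the next library below it at 0.412, and the low group ended at -0.483, with the next above it at -0.477. The deposited values are on a log2-like, variance-stabilised scale, which draws the values of scarce mRNAs together. On it Ak4, for example, which is not in the score, showed a log2 difference of 1.17, against 1.98 from counts (edgeR quasi-likelihood fit). The values that chose the libraries are a description and carry no test. Ankrd37 ran from 7.18 to 9.19 (median 7.92) in the high group and from 6.65 to 7.89 (median 7.19) in the low group. P4ha1 separated the groups most cleanly, at 11.24 to 12.42 (median 11.80) against 10.69 to 11.76 (median 11.16), and every high library lay above the median of the low group. The medians of Egln3 were 7.43 and 6.83, those of Pdk1 9.95 and 9.35, and those of Bnip3 12.23 and 11.80. Vegfa was the odd member, at 13.27 to 14.15 (median 13.75) in the high group and 13.11 to 13.89 (median 13.54) in the low group. Across all libraries, with sex means removed, Vegfa correlated with the other 5 genes at Pearson's r between 0.0248 and 0.212, while the other pairs lay between 0.274 and 0.516; these are descriptions over libraries of the same study. When each gene was left out and the groups were redrawn from the other 5, its log2 difference was 0.55 for Ankrd37, 0.54 for P4ha1, 0.49 for Egln3, 0.48 for Pdk1, 0.31 for Bnip3 and 0.066 for Vegfa. Vegfa thus varied least with the rest.

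**Figure D1:**
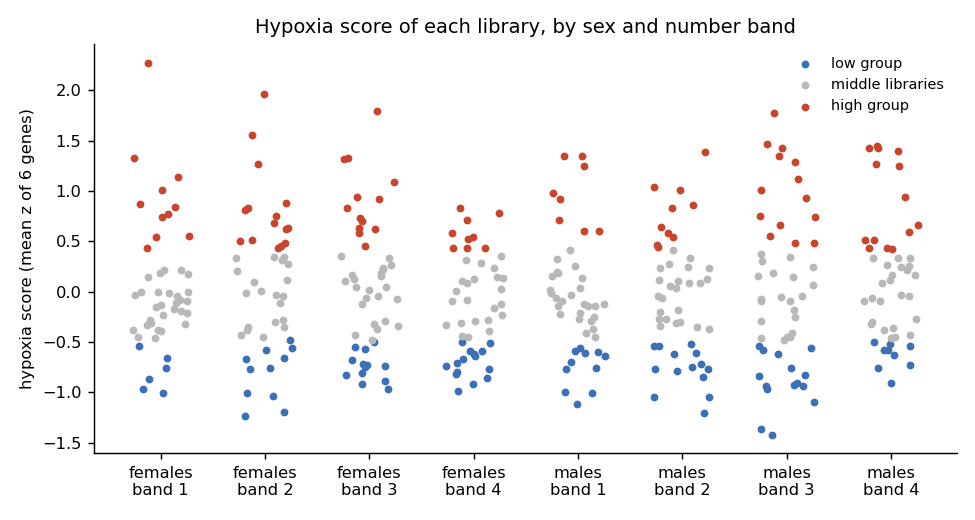
Hypoxia score of each library (y axis, mean z of 6 genes) by sex and number band (x axis), 1 point per library, coloured by group. The groups are spread over both sexes and all 4 bands, from 9 to 15 high females and 8 to 14 high males in a band.

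Of 16927 genes tested with limma (sex as a covariate, Benjamini-Hochberg adjusted p under 0.05), 3787 were called higher in the high group (22.4%) and 3837 lower (22.7%), together 7624 (45%). Most differences were small: the median absolute log2 difference was 0.0694 and the median difference -0.000165, and 85 called genes (0.502%) reached 1.5-fold, 74 of them higher (0.437%) and 11 lower (0.065%). Counts over all genes include the 6 score genes, whose calls the choice of libraries fixed. With these left out, 3781 of 16921 genes were called higher (22.3%) and 3837 lower (22.7%), and 70 higher (0.414%) and 11 lower (0.065%) reached 1.5-fold. With covariates for 6 other cell types (summary scores of acinar, duct, endothelial, stellate and lymphocyte genes and of macrophage genes) 3735 were called (22.1%), 1896 higher (11.2%) and 1839 lower (10.9%). Without the 18 libraries that stand apart 5941 were called (35.1%), 2930 higher (17.3%) and 3011 lower (17.8%). From the counts, edgeR with sex and band called 7578 (44.8%), 3957 higher (23.4%) and 3621 lower (21.4%). With calls this common, a single call says little about a gene list. Counts of members are to be read against these shares, also where the shares are not repeated. In bulk tissue, fewer cells of a type and less RNA per cell cannot be told apart.

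**Figure D2:**
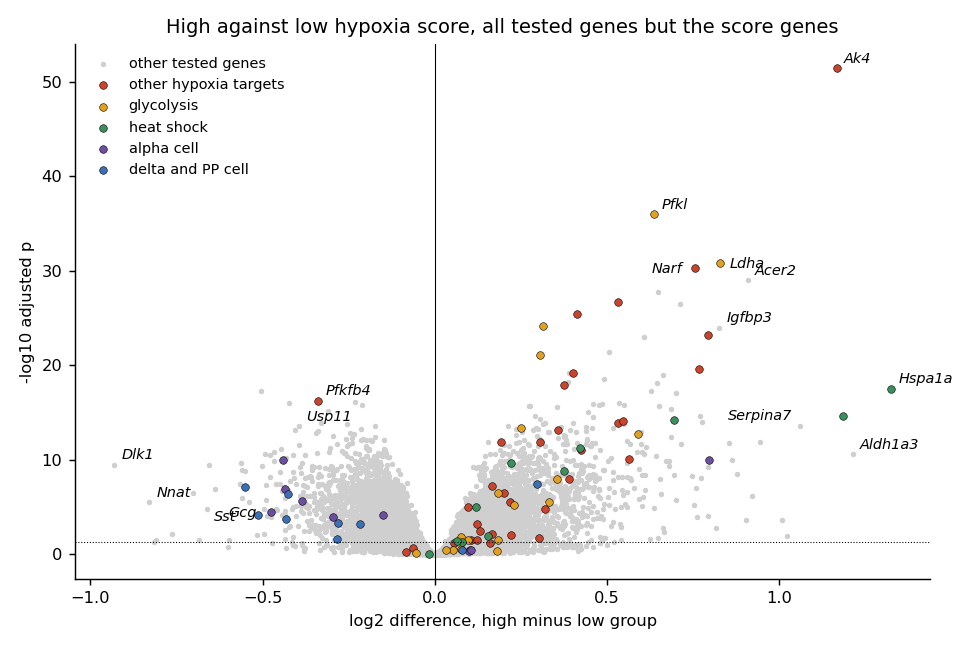
Log2 difference (x axis, high minus low group) and -log10 adjusted p from limma (y axis) of every tested gene but the score genes; the dotted line is an adjusted p of 0.05. Ak4 stands highest at a log2 difference of 1.17, and Pfkfb4 is the red point on the lower side, at -0.34.

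The gene that followed the score most closely was Ak4, a mitochondrial adenylate kinase (chr4:101419277-101466995, GRCm38). Its values ran from 7.21 to 9.47 (median 8.18) in the high group and from 6.42 to 7.55 (median 6.97) in the low group, so 82 of 94 high libraries lay above the highest low library and the groups barely overlapped. The log2 difference was 1.17 ± 0.0508 (SE), with an adjusted p of 3.61e-52 by limma. Over the 4 equal parts of the libraries ranked by score, from the lowest, its medians were 6.97, 7.28, 7.61 and 8.18. Next came Pfkl, the liver-type phosphofructokinase that commits glucose to glycolysis, at 9.94 to 11.60 (median 10.77) in high and 9.53 to 10.60 (median 10.15) in low libraries (72 of 94 above the highest low library, log2 difference 0.64 ± 0.0370 SE, limma adjusted p = 1.06e-36). Narf, which encodes a protein that binds prelamin A, ran from 7.91 to 9.84 (median 8.72) against 7.01 to 8.97 (median 7.996), and the groups overlapped more, with 26 high libraries above all low ones (log2 difference 0.76). Acer2, a Golgi ceramidase, differed by 0.91, Igfbp3, a carrier of insulin-like growth factors, by 0.83, and Inhbb, the activin B subunit, by 0.61. Kcne3, a potassium channel subunit, and Apold1, a gene best known from vessel lining cells, differed by 0.65 and 0.71. All of these were higher in each sex and in each number band. The rule for naming leading genes required this, so it adds no support of its own.

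**Figure D3:**
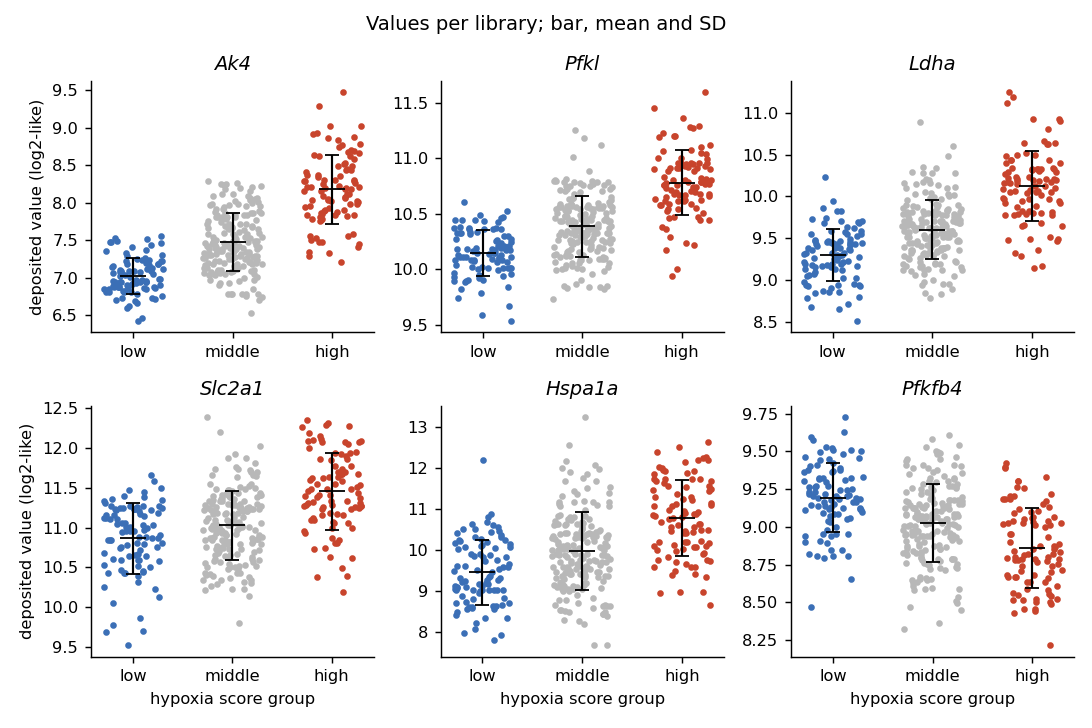
Deposited values (y axis, log2-like scale) of 6 genes in every library of the low group, the middle libraries and the high group (x axis); points are libraries, bars the mean and SD. Ak4 and Pfkl step up from low to high with little overlap, Ldha, Slc2a1 and Hspa1a overlap more, and Pfkfb4 steps down.

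Known targets of the hypoxia-inducible factors other than the score genes were higher for the most part. Of 37 on the list 33 passed the filter on low counts; 28 were called higher, 1 lower and 4 did not pass, with a median log2 difference of 0.30 against -0.000165 over all genes. Adm, the vasodilator peptide adrenomedullin, ran from 6.32 to 8.04 (median 6.97) in high and 6.02 to 6.94 (median 6.44) in low libraries, and 49 of 94 high libraries exceeded every low one. It is scarce (mean 1.004 CPM), and its log2 difference was 0.53 on the deposited scale and 1.44 from counts with edgeR. Fam162a, a mitochondrial protein, ran from 8.17 to 9.26 (median 8.63) against 7.81 to 8.93 (median 8.23) (0.41). Hilpda, which shields lipid droplets from lipolysis, ran from 8.24 to 10.92 (median 9.39) against 7.90 to 9.46 (median 8.66) (0.79), and Bhlhe40, a transcriptional repressor tied to the clock, differed by 0.77. Members that did not pass were Higd1a, at -0.083 (adjusted p = 0.582), Wsb1, at -0.064 (0.193), Kdm4b, at 0.055 (0.0667), and Ppp1r3c, at 0.16 (0.0622), all by limma. With the cell type scores as covariates 23 were called higher and 1 lower, and without the 18 libraries that stand apart 24 and 1.

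The exception was Pfkfb4, a bifunctional enzyme that sets the level of the glycolysis activator fructose-2,6-bisphosphate and a textbook hypoxia target. It ran from 8.21 to 9.42 (median 8.82) in the high group and from 8.47 to 9.73 (median 9.20) in the low group, and 83 of 94 high libraries lay below the low median. The log2 difference was -0.34 ± 0.0332 (SE, limma adjusted p = 5.26e-17), and it had the largest moderated t among lower genes that met the naming rule. It was lower in females (-0.29) and males (-0.39) and in all 4 bands (-0.44, -0.26, -0.44 and -0.22), and at -0.28 with the cell type scores. Pfkfb3, its close relative and also on the list, went the other way, at 0.56 (adjusted p = 8.11e-11); it was named after its value was seen.

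Glucose uptake and glycolysis moved with the score. Of 19 genes 13 were called higher, 0 lower and 6 did not pass (median 0.18), against 22.4% higher and 22.7% lower over all genes. With the cell type scores 10 were called higher, against 11.2% of all genes. Without the 18 libraries that stand apart 12 were, against 17.3%. Slc2a1, the glucose transporter GLUT1 of most tissues, ran from 10.20 to 12.35 (median 11.44) in high and 9.52 to 11.66 (median 10.95) in low libraries; 33 of 94 high libraries exceeded every low one (0.59 ± 0.0670 SE, limma adjusted p = 1.63e-13). Slc2a2, the beta cell glucose transporter GLUT2, was lower, with a median of 12.83 in high and 13.07 in low libraries (-0.23, limma adjusted p = 0.00390), and at -0.027 it did not pass with the cell type scores (adjusted p = 0.835). Gpi1, the isomerase one step before Pfkl, was higher (0.31), and of the steps after Pfkl, Tpi1 (0.30), Pgam1 (0.25) and the enolase gene Eno1 (0.35) were higher. Ldha, lactate dehydrogenase A, which adult beta cells normally keep low, ran from 9.14 to 11.24 (median 10.15) against 8.51 to 10.23 (median 9.32), with 35 of 94 high libraries above every low one, and the log2 difference was 0.83 ± 0.0539 (SE, limma adjusted p = 1.47e-31). Gapdh (0.075, adjusted p = 0.279), Pkm (0.032, 0.312), Pfkp (0.10, 0.326), Eno2 (0.051, 0.349), Aldoc (-0.054, 0.659) and Pgk1 (0.18, 0.466) did not pass. The counts of Pgk1 and Gpi1 were fractional in every library and those of Ldha in most, as when reads are shared with near-identical copies. Pgk1 spanned 7.51 to 13.77 (median 12.66) within the high group alone, so its value is uncertain.

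Downstream of glycolysis the differences were smaller and mixed. Among 14 genes around pyruvate dehydrogenase, 4 were higher and 3 lower, close to the shares over all genes. The phosphatase genes Pdp2 (-0.28) and Pdp1 (-0.18), whose products switch the complex on, were lower. The kinase genes Pdk2 (0.25), Pdk3 (0.11) and Pdk4 (0.33), whose products switch it off, were higher, and Pdk2 no longer passed with the cell type scores (0.066, adjusted p = 0.459). Pdp2 ran from 7.64 to 9.14 (median 8.50) in high and 8.27 to 9.14 (median 8.73) in low libraries. The catalytic subunit Pdha1 did not pass (-0.039, adjusted p = 0.144), and Mpc1, a subunit of the mitochondrial pyruvate carrier, was lower (-0.16). Of 16 citric acid cycle genes 0 were higher and 3 lower (Dlst at -0.17, Cs at -0.058 and Ogdh at -0.068). Over all genes 22.4% were called higher and 22.7% lower. Of nuclear genes of oxidative phosphorylation 8 of 22 were higher and none lower, with a median of 0.040, among them the ATP synthase subunit Atp5o at 0.12; with the cell type scores 2 were called. Of the 13 mitochondrially encoded mRNAs mt-Nd5 (-0.17) and mt-Nd6 (-0.12) were lower, and this class took 2.97% ± 0.671 (SD, n = 94) of counts in the high and 3.22% ± 0.612 (SD, n = 94) in the low group (permutation test, adjusted p = 0.0164).

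Hypoxia is known to exchange subunits of cytochrome oxidase and to raise mitophagy receptors. Ndufa4l2, which replaces a subunit at the end of the respiratory chain, was higher at 0.27 and Cox4i2 at 0.15, while Cox4i1, the form that Cox4i2 replaces, was also slightly higher (0.064) and Lonp1, the mitochondrial protease, was lower (-0.12). Of 11 mitophagy genes besides Bnip3 6 were higher and 1 lower, against 22.4% and 22.7% of all genes. Bnip3l, the sister receptor of Bnip3, ran from 10.39 to 11.77 (median 11.09) against 10.32 to 11.25 (median 10.72) (0.37), and Map1lc3b, an autophagosome protein, was higher by 0.25. The kinase Pink1 was higher (0.16) and its partner Park2, which encodes parkin, did not pass (0.048, adjusted p = 0.210).

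Glycogen and lipid genes also followed the score. Gys1, glycogen synthase, ran from 8.28 to 10.17 (median 9.02) in high and 7.82 to 9.27 (median 8.65) in low libraries (0.44 ± 0.0458 SE, limma adjusted p = 8.85e-16), and Pgm2 (0.29), Gyg (0.20), the primer of glycogen, and Ppp1r3b (0.55), which activates the synthase, were higher. Pygb, a glycogen phosphorylase that breaks the polymer down, was lower (-0.39). In all 7 of 14 genes on the list were higher and 3 lower, against 22.4% and 22.7% of all genes, so the lower count was near its share. Plin2, the coat of lipid droplets, ran from 8.84 to 11.22 (median 9.98) against 8.63 to 10.15 (median 9.24) (0.70). Cpt1a, the gate to mitochondrial fat oxidation, differed by 0.36, and Angptl4, a lipase inhibitor, by 0.53. In this list 9 of 15 genes were higher and none lower, against the same shares over all genes. Cholesterol synthesis leaned the other way, with 9 of 16 lower and 1 higher (Hmgcs1, an early enzyme of the pathway, at -0.27 and Srebf2, which drives it, at -0.22). With the cell type scores 1 of these was called lower and 0 higher, and without the 18 libraries that stand apart 5 and 0. Txnip, a glucose-induced inhibitor of thioredoxin, ran from 10.65 to 14.52 (median 12.35) in high and 10.68 to 13.38 (median 11.91) in low libraries (0.68), and Arrdc4, which is switched on by the same glucose sensor, was higher by 0.37.

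The regulators of the pathway showed small differences. Hif1a ran from 11.64 to 12.61 (median 12.15) in high and 11.62 to 12.47 (median 11.9996) in low libraries, an overlap of nearly the whole range (0.14 ± 0.0262 SE, limma adjusted p = 2.62e-06). Epas1 differed by 0.17 (adjusted p = 5.98e-04) and, with the cell type scores, by -0.053 (adjusted p = 0.342). Of the prolyl hydroxylases, Egln1, itself a target, was higher (0.19, 41 of 94 high libraries above every low one), and Egln2, at medians of 10.30 and 10.29, did not pass (0.023, adjusted p = 0.572). Vhl did not pass (-0.024, adjusted p = 0.293), Arnt was slightly higher (0.084), and Hif1an, the asparagine hydroxylase that restrains the factors, and the coactivator Ep300 were slightly lower (-0.059 and -0.12). These counts, 4 higher and 4 lower of 15, were close to the shares over all genes. Genes of collagen modification, among them hydroxylases that use oxygen as a substrate as the sensors do, were higher in 9 of 11 cases with P4ha1 left out and lower in none. P4ha2 was higher by 0.36, P4hb by 0.23, Plod1 by 0.27, Plod2 by 0.43, Plod3 by 0.12 and P3h2 by 0.49. Serpinh1, the collagen chaperone, did not pass (0.076, adjusted p = 0.0974). Of these genes 5 were called higher with the cell type scores, Plod3 no longer among them (0.060, adjusted p = 0.0692), and without the 18 libraries that stand apart 7. Of the cell markers given further on, 13 of 14 for endothelial cells and 6 of 14 for stellate cells and pericytes were called higher. Over all genes 22.4% were.

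Vessel signalling genes other than Vegfa were higher in 11 of 18 cases and lower in none. Among ligands, Pgf, placental growth factor, ran from 7.34 to 9.67 (median 8.12) against 6.90 to 9.10 (median 7.63) (0.63), and Vegfb (-0.027, adjusted p = 0.603) and Vegfc (0.051, 0.117) did not pass. Among receptors, Flt1, the VEGF receptor that is itself a hypoxia target, ran from 10.95 to 12.72 (median 11.82) in high and 10.59 to 12.11 (median 11.36) in low libraries (0.50 ± 0.0419 SE, limma adjusted p = 3.86e-22), while Kdr, the main signalling receptor of the same cells, did not pass (0.025, adjusted p = 0.562). The angiopoietin receptor Tek (0.25) and its partner Tie1 (0.23) were higher, as was Calcrl (0.33), a subunit of the adrenomedullin receptor. Of 14 markers of the vessel lining 13 were higher, with Pecam1 at 0.25 and Plvap at 0.31. Flt1 and Kdr, for example, are on both lists and are counted again here, Kdr as the marker that was not called. The summed level of the markers ran from 504 to 1304 CPM (median 709) in the high and from 472 to 1185 CPM (median 638) in the low group. With the cell type scores, of which the vessel lining list is 1, 4 of the vessel signalling genes were called higher and 3 lower. In that fit Flt1 was at 0.25 (adjusted p = 7.49e-09) and Pgf at 0.41 (2.99e-07), whereas Tek was at 0.0091 (0.897) and Kdr at -0.19 (3.22e-09). Flt1 and Kdr are themselves on the vessel lining list, so they were adjusted for a score that holds their own values. For members of that list the fit cannot separate their own change from that of the score.

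Other cells that come along with islets were measured the same way, and their part in the differences was not tested beyond these covariates. Stellate and pericyte genes were higher in 6 of 14 cases, with Rgs5 at 0.59 and Postn at 0.48, against 22.4% of all genes. Their summed level ran from 113.6 to 1573 CPM (median 188.8) in the high and 91.4 to 260.5 CPM (median 150.3) in the low group. Without the 18 libraries that stand apart 3 were higher and 1 lower. In that fit 17.3% of all genes were higher and 17.8% lower, so the higher count was near its background. Acinar genes, of the digestive gland around the islets, took 0.702% ± 0.904 (SD, n = 94) of counts in high and 0.570% ± 0.907 (SD, n = 94) in low libraries (permutation test, adjusted p = 0.494), and 1 of 18 was called, the trypsinogen Prss1. Prss1 ran from 5.35 to 13.98 (median 6.50) against 5.35 to 11.63 (median 5.90), with counts that were fractional in most libraries. Duct genes were mixed (3 higher and 5 lower of 14, Aqp1 at 0.59 and Krt8 at -0.32), as were macrophage genes (2 and 1 of 12, Cd68 at -0.18). The shares over all genes were 22.4% higher and 22.7% lower. Of 3 lymphocyte genes that passed the filter Cd79a was lower (-0.45). Schwann cell genes (1 higher, 2 lower of 7), red cell genes (1 higher of 5) and adipocyte genes (1 higher, 1 lower of 3) gave few calls.

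**Figure D4:**
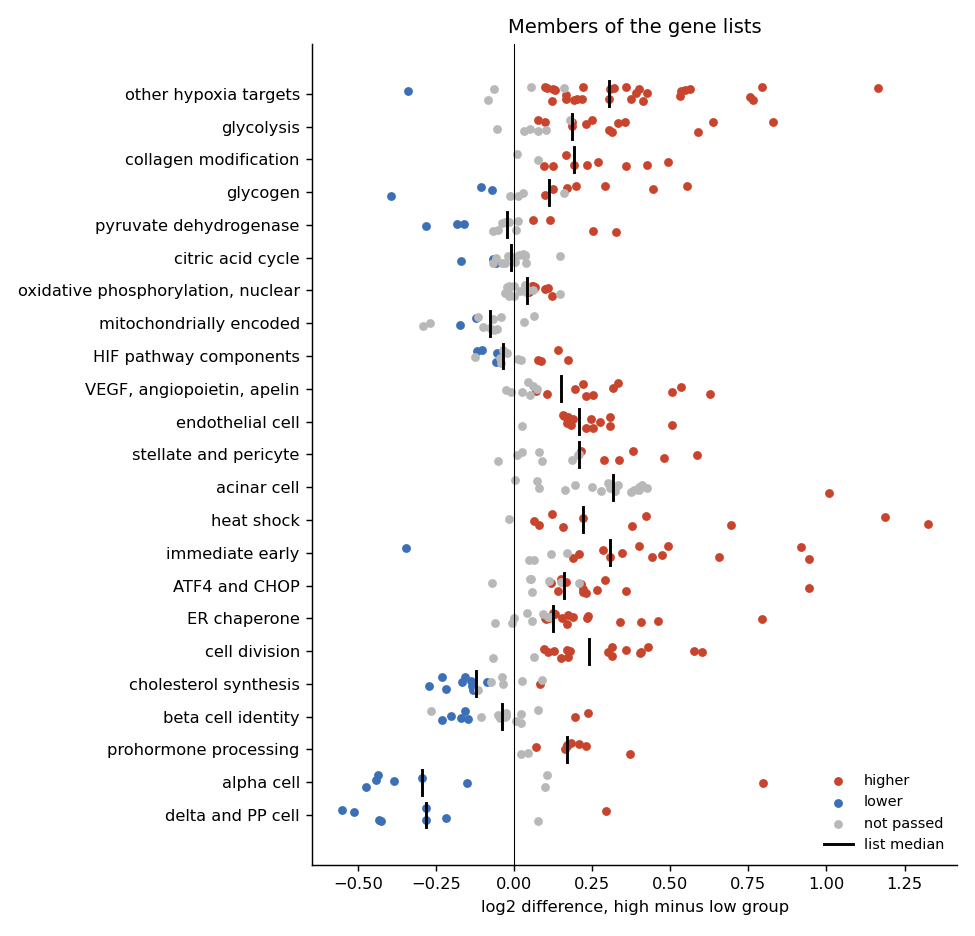
Log2 difference (x axis, high minus low group) of each tested member of 23 gene lists (y axis), coloured by its limma call; the black bar is the list's median, and the score genes are left out. Other hypoxia targets, collagen-modifying, endothelial and heat shock genes lie almost wholly to the right, and alpha, delta and PP cell genes mostly to the left.

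Heat shock and immediate early genes were also higher in the high group. Hspa1a and Hspa1b, the twin inducible chaperones of the HSP70 family, were among the genes with the largest log2 differences that met the naming rule. Hspa1a ran from 8.67 to 12.64 (median 10.81) in high and 7.81 to 12.20 (median 9.34) in low libraries, and 5 of 94 high libraries lay above the highest low one although 89 lay above the low median (1.33 ± 0.124 SE, limma adjusted p = 2.97e-18). Their counts were fractional in every library, so the division of reads between them is uncertain. The co-chaperone Dnajb1 (0.69), Hsph1 (0.42), Hspb1 (0.38) and the mitochondrial Hspe1 (0.22) were called too. In all 10 of 11 were higher, against 22.4% of all genes, while Hspa8, the constitutive member, did not pass (-0.018, limma adjusted p = 0.833). Of 17 immediate early genes 12 were higher and 1 lower, against 22.4% and 22.7% of all genes. Atf3 ran from 9.19 to 12.43 (median 11.04) against 8.53 to 12.05 (median 10.03) (0.94), Fosb from 8.93 to 13.91 (median 11.54) against 7.94 to 12.92 (median 10.57) (0.92), and Fos (0.66), Jun (0.47) and Btg2 (0.49) were higher, while Npas4, which neurons and beta cells switch on when calcium enters, was lower (-0.35). The difference varied between number bands, from 0.62 in band 4 to 1.68 in band 1 for Hspa1a and from 0.18 to 1.37 for Fosb; neither passed the test of a difference between bands (adjusted p = 0.548 and 0.676).

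Genes of endoplasmic reticulum stress were called in one direction. Among ATF4 and CHOP targets 13 of 20 were higher and none lower (Ddit3, which encodes CHOP, at 0.29, Fgf21 at 0.22, Phgdh at 0.36), while Atf4 itself did not pass (0.052, adjusted p = 0.0973). The count was 7 with the cell type scores, 11 without the 18 libraries that stand apart and 4 in females alone. ER chaperones and degradation factors were higher in 15 of 23 cases and lower in none, with Derl3 at 0.79 and Herpud1 at 0.46; the main chaperone Hspa5 did not pass (0.092, adjusted p = 0.0554). Of the ER list 10 were called with the cell type scores. Females alone gave 2 and males alone 16, where 4.38% and 22.4% of all genes were called higher, so the female count was near its background. Genes of NF-kB and islet isolation stress split, 5 higher and 6 lower of 16: the cytokine Il6 was higher (0.75), and the subunits Nfkb2 (-0.38) and Relb (-0.27) and the chemokine Cxcl2 (-0.25) lower. Without the 18 libraries that stand apart 2 were called higher and 3 lower. Over all genes 22.4% were higher and 22.7% lower with all libraries, and 17.3% and 17.8% without the 18. Among 14 NRF2 antioxidant genes 3 were higher and 2 lower, no more than the shares over all genes. The lower genes were Srxn1 (-0.30) and Gclm (-0.19). Hmox1, which hypoxia can also induce, did not pass (-0.019, limma adjusted p = 0.776). Of 10 p53 targets 4 were higher, Trp53inp1 most (0.43), and Cdkn1a was at 0.13. In this list 1 was called higher without the 18 libraries, where 17.3% of all genes were. With the cell type scores 1 was, against 11.2% of all genes.

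The hormone genes did not move together. Ins1 and Ins2 took 14.4% ± 3.98 (SD, n = 94) of counts in high and 12.2% ± 2.41 (SD, n = 94) in low libraries (two-sided permutation test, p = 2e-05, the smallest that 100000 resamples can give, adjusted p = 6e-05). Ins2 ran from 20.46 to 22.56 (median 21.66) against 20.84 to 22.11 (median 21.43) (0.28), Ins1 differed by 0.34 and Iapp, islet amyloid polypeptide, by 0.21, each with wide overlap. Alpha cell genes were lower in 6 of 9 cases. Gcg, glucagon, ran from 15.79 to 20.60 (median 18.80) in high and 17.48 to 20.56 (median 19.09) in low libraries (-0.47 ± 0.0998 SE, limma adjusted p = 3.04e-05), and Irx2, a homeobox gene of alpha cells, was lower (-0.38). Gc, the vitamin D binding protein and the single alpha cell gene that rose, ran from 9.95 to 15.02 (median 12.26) against 10.40 to 13.02 (median 11.61) (0.80). Delta and PP cell genes were lower in 7 of 9 cases: Sst, somatostatin, ran from 11.94 to 17.15 (median 14.99) against 13.57 to 16.84 (median 15.30) (-0.51), and Rbp4 (-0.55), Ghsr (-0.43) and Ppy (-0.43) were lower, while Lepr, the leptin receptor, was higher (0.30). The summed alpha cell level ran from 2192 to 54373 CPM in the high and from 6352 to 56197 CPM in the low group. These differences were larger in males, at -0.84 for Gcg and -1.01 for Sst against -0.11 and -0.012 in females (limma interaction adjusted p = 0.00663 and 8.80e-04; without the 18 libraries that stand apart 0.175, which does not pass, and 0.0442). Of alpha cell genes 6 were called different between the sexes and 1 without those libraries, and of delta and PP cell genes 7 and 5. The shares over all genes were 11.4% and 1.35%. The log2 differences of Gcg and Sst came to -0.32 and -0.37 in both sexes together without those libraries. With the cell type scores Gcg was at -0.30 (adjusted p = 0.0411), while Sst (-0.29, adjusted p = 0.0982) and Ppy (-0.28, adjusted p = 0.0819) no longer passed.

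Beta cell identity genes were mostly not called, 2 higher and 5 lower of 18, against 22.4% higher and 22.7% lower over all genes. Pax6 was higher (0.24) and G6pc2, the islet glucose-6-phosphatase, as well (0.20), and Foxa2 (-0.16), the potassium channel gene Kcnj11 (-0.15) and Ucn3 (-0.20), a mark of mature beta cells, were lower. Mafa, which drives insulin transcription, ran from 6.77 to 11.79 (median 9.28) in high and 8.24 to 11.66 (median 9.43) in low libraries and did not pass (-0.27, limma adjusted p = 0.0551). Prohormone processing genes were higher in 8 of 10 cases (Cpe at 0.21, Chgb at 0.37). Of these, 5 were called with the cell type scores and 5 without the 18 libraries that stand apart. In females alone 0 were called, against 4.38% of all genes there, and in males alone 9, against 22.4%. Aldh1a3, a retinaldehyde dehydrogenase that marks dedifferentiated beta cells, ran from 6.13 to 12.76 (median 7.98) in high and 6.08 to 11.04 (median 7.09) in low libraries. It had the second largest log2 difference of the genes that met the naming rule (1.21 ± 0.154 SE, limma adjusted p = 2.63e-11), 0.74 with the cell type scores and 1.01 without the 18 libraries that stand apart; its counts were fractional in nearly every library. Neurog3, the endocrine progenitor factor on the same list, was lower (-0.19), and the list as a whole had 6 higher and 3 lower of 15 (3 and 3 with the cell type scores). Over all genes 22.4% were higher and 22.7% lower, and 11.2% and 10.9% with the cell type scores. The lower count without those scores was near its share.

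Cell division genes were higher in 16 of 18 cases and lower in none. Mki67, the mark of cycling cells, ran from 6.66 to 10.62 (median 7.85) against 6.75 to 8.45 (median 7.42) (0.60), and Cdk1 (0.41), Tpx2 (0.43) and Cenpf (0.40) were higher. With the cell type scores 10 were called, without the 18 libraries that stand apart 13, and in females alone 6. Cytosolic ribosomal protein genes were higher in 14 of 18 cases by small amounts (Rpl4 at 0.17, Rplp0 at 0.21), with 4 called with the cell type scores and 11 without the 18 libraries that stand apart. In females alone, where 4.38% of all genes were called higher, 0 were. The interferon response gave 3 of 16 (Isg15 at 0.31, adjusted p = 0.0229), close to the 22.4% over all genes. Clock genes went both ways, 5 higher and 2 lower of 16, against 22.4% and 22.7% of all genes. Cry2 (0.54) and Nfil3 (0.64) were higher, Clock (-0.11) and Cry1 (-0.13) lower, Cry1 no longer passing without the 18 libraries that stand apart (adjusted p = 0.0895), and Dbp (-0.055, adjusted p = 0.591) and Per1 (0.12, 0.116), the usual phase markers, did not pass.

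Genes that were lower in the high group seldom reached 1.5-fold (11 genes, 0.065% of tested genes, against 70 that were higher, 0.414%, with the score genes left out). By the moderated t the first after Pfkfb4 were Zfp334, which encodes a zinc finger protein, at -0.23, and the deubiquitinase gene Usp54 at -0.21. Usp54 ran from 9.10 to 9.94 (median 9.66) in high and 9.60 to 10.30 (median 9.87) in low libraries, and 34 of 94 high libraries lay below the lowest low one. Trim35 (-0.31), the ciliary kinase gene Nek8 (-0.33), Usp11 (-0.39), Traf3ip1 (-0.17), which serves transport in cilia, and Zfp398 (-0.41) followed. Mlst8, a subunit of both mTOR complexes, ran from 8.71 to 10.12 (median 9.77) against 9.72 to 10.26 (median 9.96) and differed by -0.25, with 38 high libraries below every low one. Prkab1, a regulatory subunit of the energy sensor AMPK, was lower (-0.24), as were Mars2 (-0.21), the mitochondrial methionyl-tRNA synthetase, and Eftud1 (-0.24), a factor of ribosome maturation. By size the lowest were Dlk1 and Nnat, imprinted genes expressed in islets. Dlk1 ran from 6.58 to 11.09 (median 8.55) in high and 7.28 to 11.32 (median 9.52) in low libraries (-0.93 ± 0.127 SE, limma adjusted p = 3.24e-10), and Nnat, which helps process preproinsulin, from 7.60 to 12.001 (median 9.35) against 8.12 to 12.64 (median 10.38) (-0.83). Mest, also imprinted, was at -0.64, Mlph, a granule transport adaptor, at -0.70, Arhgap36 at -0.66 and Ccdc88c at -0.65. Amd2 (-0.76) and Car15 (-0.69) had values that spread over a wide range within each group, 7.89 to 13.999 (median 9.64) in the high group for Car15, and fractional counts in every library.

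Among the larger increases was a gene on none of the lists. Serpina7, which encodes thyroxine-binding globulin, ran from 8.56 to 13.59 (median 10.64) in high and 8.22 to 11.76 (median 9.68) in low libraries (1.06 ± 0.116 SE, limma adjusted p = 2.43e-14). It was 0.51 in females and 1.6004 in males, and 0.90 without the 18 libraries that stand apart.

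Whether the differences were the same in both sexes was tested as an interaction. Of 16927 genes 1928 (11.4%) were called, 2 of them score genes, and 95.7% of these had the larger absolute difference in males, against 72.3% of all tested genes; 691 had opposite signs in the sexes. The score gap itself was wider in males (median 0.887 in high and -0.755 in low males, 0.738 and -0.740 in females), and of the score genes P4ha1 differed by 0.51 in females and 0.74 in males and Ankrd37 by 0.58 and 0.89. Without the 18 libraries that stand apart, 11 of which were high males, 1.35% of genes were called, and 97.8% of those were among the 1928. Females alone gave 1534 calls (9.06%; 742 higher, 4.38%; 792 lower, 4.68%) and males alone 7624 (45%; 3792 higher, 22.4%; 3832 lower, 22.6%), of which 6450 were also called in the same direction over both sexes. Other hypoxia targets were higher in 19 cases in females alone and 26 in males alone, glycolysis genes in 11 and 10. Pfkl differed by 0.62 in females and 0.65 in males (interaction adjusted p = 0.851). Ak4 differed by 0.99 and 1.34 (interaction adjusted p = 0.00924), a call that was lost without the 18 libraries (0.0786). Of other hypoxia targets 11 were called different between the sexes, and 1 without these libraries. The smallest interaction p-values belonged to Mlst8, Cyp26b1, Nucb2, Slc25a20 and Ell2. Cyp26b1, which breaks down retinoic acid, differed by 0.27 in females and 1.42 in males (adjusted p = 2.26e-05, 2.78e-04 without the 18 libraries), and Aldh1a3, which makes it, by 0.38 and 2.03 (4.06e-05 and 0.00129). Nucb2, the nesfatin precursor, differed by 0.19 and 1.002. These p-values are from limma, adjusted over all genes.

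**Figure D5:**
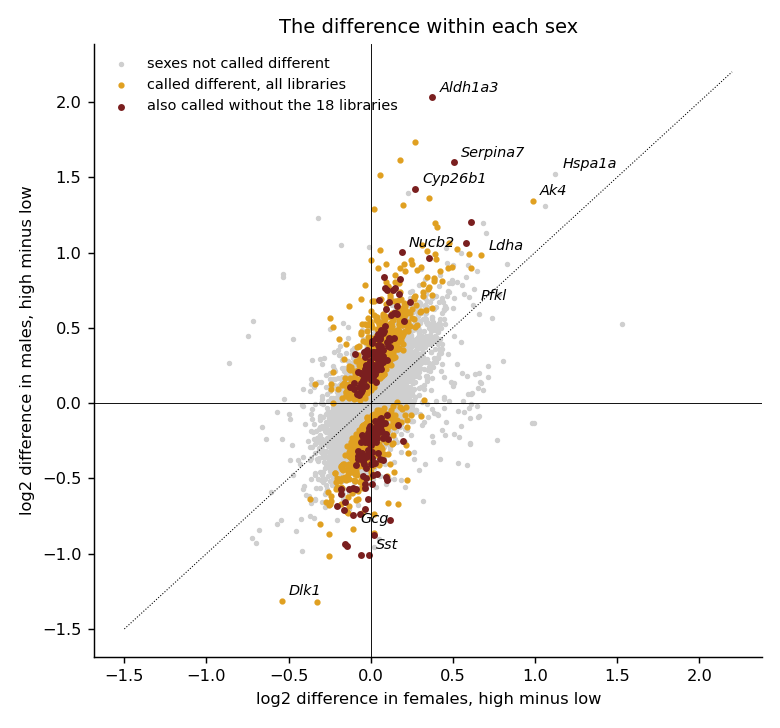
Log2 difference (high minus low group) in females (x axis) and males (y axis) for every tested gene but the score genes; the dotted line marks equal differences, yellow genes were called different between the sexes and dark red ones also without the 18 libraries that stand apart. Pfkl and Hspa1a lie near the line, Aldh1a3 and Cyp26b1 far above it, and Sst and Gcg below it.

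The test of a difference between number bands gave few calls: 1 gene of 16927 (0.00591%) was called by limma, Mib1. At an unadjusted p below 0.05 there were 1229, and edgeR, run on counts, called 7. Of the 7624 called genes 84% had the same sign in both sexes and all 4 bands, against 45.1% of all tested genes. The sexes and bands are parts of the libraries that gave the calls. Called genes are therefore bound to share signs more often, and the contrast is a description only. Ak4 was at 1.32, 1.1005, 1.29 and 0.91 in the 4 bands and Pfkl at 0.64, 0.67, 0.74 and 0.47.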

How the data were processed

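Poly(A)-selected RNA of frozen pancreatic islets was sequenced from Diversity Outbred mice, 1 library each. The authors deposited estimated counts per gene (expected counts, 67.7% whole numbers) and variance-stabilised expression values, log2-like in scale. GRCm38 and DESeq2 are named, without versions, per the submitters' processing notes; the transformation's settings, the counter, the use of strand and the aligner were not given in the sources used here. Gene positions are from the deposited annotation.

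The score was computed from the deposited log2-like values. Genes were kept by edgeR's filterByExpr on rounded counts grouped by sex (16927 of 22180). The main test was limma on the deposited log2-like values with sex as a covariate and a Benjamini-Hochberg adjusted p under 0.05; this and the interactions of group with sex and with number band were fitted over all genes. Alternatives were edgeR's quasi-likelihood test and DESeq2 on rounded counts, other covariates, filters, score definitions and group sizes, and each sex or band alone. Summed counts over a gene list are in CPM. Tested on data simulated with independent noise in each gene, limma recovered 70% of genes changed 1.1-fold and 90% of those changed 1.25-fold. It made 4 false calls among 16927 genes. At the same folds edgeR recovered 24% and 80%, and limma's interaction with sex 16% and 68%. The real groups were sorted on RNA that varies together between libraries, so the simulated false calls do not give the rate of false calls in the real comparison. Each mouse gave 1 library, so p-values measure the spread between libraries, in which mouse, islet isolation and library preparation cannot be told apart. The groups were sorted on RNA of the same libraries, so these p-values describe what goes along with the score.

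Named genes were, among genes of mean CPM of at least 2 with 1 sign in both sexes and all 4 bands, the 12 of largest moderated t and the 8 of largest log2 difference in each direction, up to 6 members of a list with the smallest adjusted p, defining members that did not pass, preset genes and the 5 of smallest p in each interaction. The score genes, the 41 lists and the comparison were chosen with earlier results of these data known. Some genes are on more than 1 list and count in each. Among the other hypoxia targets, P4ha2, Plod2 and Lox are also on the collagen list, Adm on the vessel signalling list and Bnip3l on the mitophagy list. Software was R 4.3.3, edgeR 4.0.16, limma 3.58.1, DESeq2 1.42.0, Python 3.11.15, NumPy 2.4.6, SciPy 1.17.1, pandas 2.3.3 and matplotlib 3.10.9.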

Additional observations from a re-analysis of the deposited data

Results flagged for a closer look

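In 1928 genes the difference between the high and low groups itself differed between females and males by limma's interaction test, and without the 18 libraries that stand apart, 11 of them high males, in 1.35% of the genes tested, against 11.4%. Where a gene was higher in the high group, the excess of the male over the female log2 difference was 1.66 for Aldh1a3, 1.47 for Prss1, 1.15 for Cyp26b1, 1.09 for Serpina7, 0.81 for Nucb2, 0.59 for Acer2 and 0.56 for Txnip. It was 0.48 for Igfbp3, 0.46 for Ell2, 0.39 for Hilpda, 0.37 for Slc25a20, the mitochondrial carnitine carrier, 0.36 for Ak4, 0.31 for Ldha, 0.29 for Narf, 0.16 for Hif1a and 0.10 for Ythdc1. Among genes that were lower, the male minus female value was -0.99 for Sst, -0.99 for Nnat, -0.77 for Dlk1, -0.76 for Mest and -0.73 for Gcg, so the fall was larger in males. The same held for Usp11 at -0.36, Mlst8 at -0.32, Eftud1 at -0.20 and Traf3ip1 at -0.12. Without the 18 libraries 10 of these 25 genes still passed the interaction test (Acer2, Aldh1a3, Cyp26b1, Ell2, Igfbp3, Mlst8, Nucb2, Serpina7, Slc25a20 and Sst), and the other 15 did not. The part of the wider score gap in males was not tested.

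Between number bands 1 gene differed in its response by limma, Mib1, a ubiquitin ligase of Notch signalling (adjusted p = 0.0253), with log2 differences of -0.12, 0.23, 0.093 and -0.0090 in bands 1 to 4.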

How the results depend on the processing

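No paired analysis was possible because each mouse number occurs once and the groups share none. The main count of 7624 genes lay between 5941 and 9085 under the alternatives that kept most libraries and no cell type scores, except for the filter of mean CPM of at least 5, which tested fewer genes (5519 of 11111). With the 6 cell type scores as covariates 3735 were called (1896 higher, 1839 lower), and 2.45% of the 7624 changed sign. Males alone also gave 7624, while other parts of the libraries gave fewer: females alone gave 1534 (742 higher, 792 lower), band 1 alone 3215 (1741, 1474), band 2 alone 982 (558, 424), band 3 alone 2810 (1462, 1348) and band 4 alone 988 (485, 503). The share of genes that differed between the sexes was 11.4% and became 1.35% without the 18 libraries that stand apart, 3.63% without band 4 and 5.69% with values as z within sex, alternatives chosen after seeing the data; the cause was not tested. For the bands edgeR called 7. Depth limits the scarce genes, whose log2 differences the deposited scale compresses. With the 6 cell type scores 28 named genes kept their direction but no longer passed (Amd2, Atp5o, Car15, Cdkn1a, Clock, Cox4i1, Cox4i2, Cry1, Cs, Gclm, Hmgcs1, Isg15, Mlph, Mpc1, Npas4, Ogdh, Pdk2, Pecam1, Pink1, Plod3, Plvap, Ppy, Prss1, Slc2a2, Sst, Tek, mt-Nd5 and mt-Nd6), and without the 18 libraries that stand apart 8 (Car15, Cdkn1a, Cox4i1, Cry1, Cs, Neurog3, Ogdh and mt-Nd6). In females alone 59 no longer passed. Of the genes lost with the cell type scores, Pecam1, Plvap and Prss1 are on lists that make up those scores.

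Of the genes named in the text 47 kept direction and call under every alternative. Log2 differences of opposite sign to the main value arose in 81 of 5532 pairs of gene and setting, mostly for genes that did not pass; of called genes they arose for Clock, Cry1, Cs, Epas1, Neurog3, Ogdh, Ppy, Tie1 and Ythdc1. With the 6 cell type scores these were Aldoc at 0.16, Epas1 at -0.053, Hspa8 at 0.056, Kdr at -0.19, Pdha1 at 0.000069, Pgk1 at -0.057, Serpinh1 at -0.074 and Tie1 at -0.0077. With Egln3 left out of the score these were Aldoc at 0.0015 and Hspa8 at 0.0072. With Bnip3 left out of the score these were Aldoc at 0.0036 and Hspa8 at 0.038. In females alone these were Aldoc at 0.23, Cs at 0.0051, Higd1a at 0.072, Hmox1 at 0.051, Hspa8 at 0.058, Mafa at 0.035, Neurog3 at 0.016, Ppy at 0.021 and Vegfb at 0.081. Within band 2 these were Aldoc at 0.18, Dbp at 0.017, Eno2 at -0.054, Pgk1 at -0.024, Serpinh1 at -0.011, Vegfb at 0.048, Vegfc at -0.029 and Wsb1 at 0.013. Within band 3 these were Aldoc at 0.035, Dbp at 0.16, Egln2 at -0.012, Ogdh at 0.0069 and Vegfb at 0.029. Without the 18 libraries that stand apart these were Aldoc at 0.0081, Hmox1 at 0.0070, Hspa8 at 0.050 and Vegfb at 0.0073. Within band 1 these were Atf4 at -0.076, Cry1 at 0.10, Egln2 at -0.039, Eno2 at -0.10, Hspa5 at -0.0031, Mib1 at -0.12 and Pfkp at -0.041. Within band 4 these were Clock at 0.023, Higd1a at 0.34, Hmox1 at 0.015, Hspa8 at 0.076, Kdm4b at -0.034, Kdr at -0.082, Mafa at 0.22, Mib1 at -0.0090, Per1 at -0.0038, Vhl at 0.011 and Ythdc1 at -0.072. With P4ha1 left out of the score this was Dbp at 0.0081. Without band 4 these were Dbp at 0.026 and Vegfb at 0.013. With Ankrd37 left out of the score these were Egln2 at -0.0055 and Hspa8 at 0.054. With the score from log2 CPM these were Egln2 at -0.0032 and Pgk1 at -0.10. In males alone these were Egln2 at -0.0029, Eno2 at -0.11, Kdm4b at -0.021 and Pfkp at -0.055. With smaller groups these were Hmox1 at 0.11 and Mib1 at -0.0048. With the score as a continuous covariate these were Hmox1 at 0.0082 and Hspa8 at 0.0056. With Vegfa left out of the score this was Hmox1 at 0.0015. With z over both sexes these were Hmox1 at 0.041 and Hspa8 at 0.038. By edgeR with sex these were Hspa8 at 0.022 and Mafa at 0.062. By edgeR with sex and band this was Hspa8 at 0.022. By edgeR with size factors of the RLE kind this was Hspa8 at 0.021. By DESeq2 this was Hspa8 at 0.021. With larger groups this was Hspa8 at 0.040. With Pdk1 left out of the score this was Hspa8 at 0.0053.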
